A study of Mus musculus with 40 samples.

Results

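The cyclin-dependent kinase inhibitor genes were examined in bulk RNA sequencing of hearts from mice with cardiomyocyte-restricted expression of interleukin 11 (*Il11*). The members were chosen by gene name and are the 7 genes *Cdkn1a*, *Cdkn1b*, *Cdkn1c*, *Cdkn2a*, *Cdkn2b*, *Cdkn2c* and *Cdkn2d*. The male table lists 6 of them among 17646 genes, since *Cdkn2a* is not listed there, and the female table lists all 7 among 17223 genes. All listed members passed the filter on low values (at least 0.5 in at least 3 libraries), but *Cdkn2a* reached 0.5 CPM only in female hearts at 6 weeks, and *Cdkn2b* reached it in no control library. Counts over the tested members therefore include genes that entered through the groups in which they were high.

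Cyclin-dependent kinases drive the cell cycle once they are bound by a cyclin, and the inhibitors hold them back. The Cip/Kip proteins (p21 from *Cdkn1a*, p27 from *Cdkn1b* and p57 from *Cdkn1c*) bind complexes of cyclin and kinase, above all those of Cdk2, whereas the INK4 proteins (p16 from *Cdkn2a*, p15 from *Cdkn2b*, p18 from *Cdkn2c* and p19 from *Cdkn2d*) bind Cdk4 and Cdk6 and keep cyclin D away from them. In the adult heart most cardiomyocytes have left the cell cycle, while fibroblasts, endothelial cells and immune cells can still divide.

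CM-Il11-Tg mice carry *Rosa26-Il11* and an α-MHC-MerCreMer transgene, whose promoter drives the tamoxifen-dependent recombinase in cardiomyocytes. They come from a cross of C57BL/6N and C57BL6/J parents. Tamoxifen (20 mg/kg for 5 days) was given at 8 weeks of age, and hearts were collected 1, 3 or 6 weeks later, groups called induced here. Controls were tamoxifen-treated littermates with MerCreMer and no *Rosa26-Il11*, named baseline or WT in the labels. The study describes them as age-matched, but the labels do not give how long after tamoxifen they were collected. The same controls of each sex served the comparisons at every week. The remaining group, called uninduced here, was CM-Il11-Tg without tamoxifen, so both the transgene and the drug separate it from the controls, and its age is not given in the labels. All groups carry MerCreMer. Each sex has 4 mice per group by the labels, but for 2 male libraries the title names one group and the description another, control and 6 weeks in opposite order. The column names of the deposited values follow the description for these 2 libraries. Both were left out, which leaves 38 of 40 libraries and 3 male controls and 3 male 6-week hearts. The labels give the tissue as heart and the methods of the study name the left ventricle.

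Values are in CPM from the deposited tables, read counts divided by a factor per library that is not the plain library size. Summed over the listed genes, female controls came to 1181920 to 1196280 CPM and female induced hearts to 848402 to 985319. Male controls came to 1063760 to 1193420 and male induced hearts to 817395 to 1165100. The scaling thus differed between groups, most clearly in females. Library depth ran from 16663513 to 65333832 reads in males and from 19147947 to 30929192 in females, so 3 reads correspond to between 0.0488 and 0.172 CPM. *Il11* itself lay at 0 to 0.166 CPM in controls, at 15.5 to 49.1 CPM in uninduced hearts and at 328 to 819 CPM in induced hearts. Each labelled library thus matched its label as control, uninduced or induced. The ranges of the weeks overlapped in each sex, so *Il11* does not show to which week an induced library belongs. In the library titled control and described as 6 weeks *Il11* was 511 CPM, and in the library titled 6 weeks and described as control it was 0.597 CPM. All 12 cardiomyocyte markers examined (among them *Myh6* and *Tnnt2*) were above 0 in every library. In bulk tissue, fewer cells of a type and less RNA per cell cannot be told apart.

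Per kilobase of exon, the members covered a wide range of levels in control hearts. Lengths were the union of all annotated exons of a gene, such as 6045 bases over 11 transcripts for *Cdkn1a* and 2155 over 10 for *Cdkn1c*. The order of the members therefore also depends on the annotation. In males, the mean was 8.64 CPM per kb for *Cdkn1c*, 7.47 for *Cdkn1b*, 6.21 for *Cdkn1a* and 4.84 for *Cdkn2d*, followed by 1.17 for *Cdkn2c* and 0.0858 for *Cdkn2b*. In females, it was 11.7 CPM per kb for *Cdkn1a*, 8.35 for *Cdkn1c*, 7.26 for *Cdkn1b*, 6.38 for *Cdkn2d*, 0.991 for *Cdkn2c*, 0.0544 for *Cdkn2b* and 0.0519 for *Cdkn2a*. At 6 weeks the male means were 8.41 CPM per kb for *Cdkn2d*, 7.54 for *Cdkn1b* and 6.98 for *Cdkn1a*, whose libraries overlapped (7.63 to 9.25, 7.33 to 7.67 and 5.79 to 8.28). The mean of *Cdkn1c* then lay below those of *Cdkn1a*, *Cdkn1b* and *Cdkn2d* in both sexes, at 3.69 in males and 2.87 in females. In female controls it was already below that of *Cdkn1a*. The libraries of *Cdkn1a*, *Cdkn1b* and *Cdkn1c* overlapped in male controls, so their order there is not separated by the spread.

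Against controls, the same pair of members moved at every week in males: *Cdkn1c* fell and *Cdkn2d* rose. That is 2 of 6 tested members at 1 week, 3 weeks and 6 weeks, where limma (adjusted p under 0.05) called 33.5%, 21.3% and 27.1% of all tested genes. In females, 2 of 7 members passed at 1 week (*Cdkn1c* lower, *Cdkn2c* higher; 28.4% of all genes), 4 of 7 at 3 weeks (*Cdkn1a* and *Cdkn1c* lower, *Cdkn2c* and *Cdkn2d* higher; 31.3%) and 5 of 7 at 6 weeks (*Cdkn1c* lower and all 4 INK4 genes higher; 42.7%). The female 6-week count includes *Cdkn2a* and *Cdkn2b*, which entered the test through groups in which they were high. With the filter at 1 in 4 libraries it was 3. The 2 called Cip/Kip genes were lower wherever they passed and the called INK4 genes were higher. The male calls depend on how the conflicting libraries are treated. With both placed by title they dropped to 1 at 1 week and 0 at 3 and 6 weeks, and with both placed by description the counts were unchanged. Placement by title put a heart with 511 CPM of *Il11* among the male controls, whose labelled libraries held 0 to 0.147 CPM. It also put a heart with 0.597 CPM among those at 6 weeks, whose labelled libraries held 407 to 819 CPM.

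**Figure D1:**
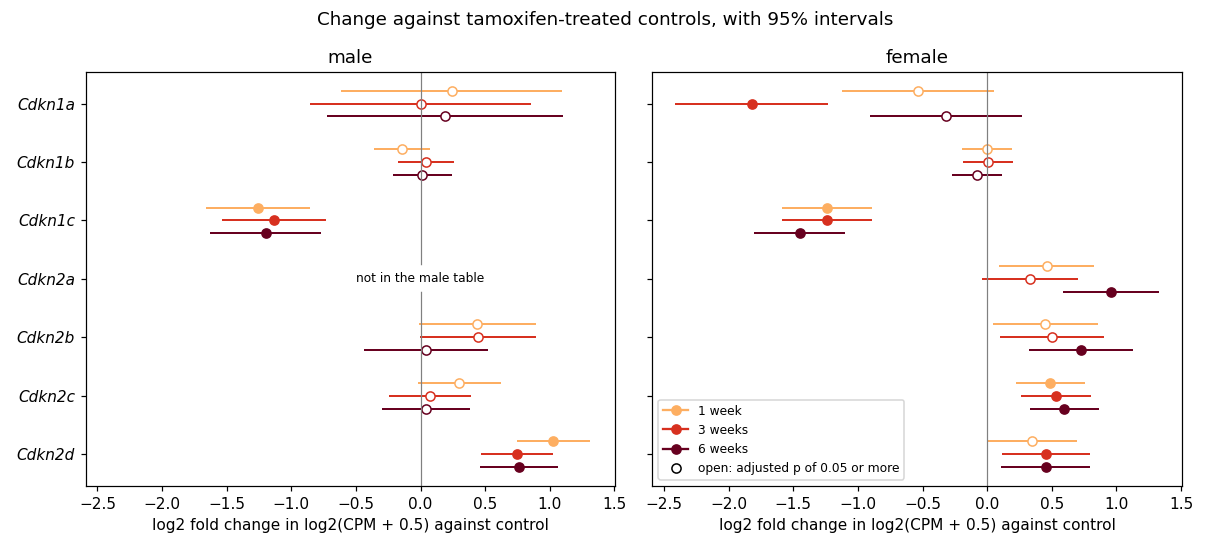
Log2 fold change of log2(CPM + 0.5) against control for each member, with its 95% interval from limma, in males (left) and females (right) at 1, 3 and 6 weeks. Filled points passed an adjusted p of 0.05: *Cdkn1c* lies left of 0 in all 6 comparisons, and *Cdkn1a* passed in females at 3 weeks (-1.82).

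*Cdkn1c*, which encodes p57 and is expressed from the maternal copy of an imprinted region, was called lower in all 6 comparisons with control. The gene lies on GRCm39 chromosome 7, positions 143012069 to 143014806, minus strand, and shares bases with the noncoding RNA genes *4933417O13Rik* and *Gm44732*. In males it measured 22.8, 15.1 and 18.0 CPM in the controls, 8.40, 7.52, 6.18 and 7.68 at 1 week, 7.33, 6.24, 9.14 and 10.3 at 3 weeks, and 5.95, 7.24 and 10.6 at 6 weeks. In females the controls held 19.8, 22.5, 13.5 and 16.3 CPM, the 1-week hearts 5.51, 8.22, 7.99 and 7.33, the 3-week hearts 6.51, 9.39, 6.93 and 6.35, and the 6-week hearts 5.39, 7.05, 5.58 and 6.69. No induced heart reached the lowest control of its sex.

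The male mean of *Cdkn1c* went from 18.6 ± 3.89 CPM (SD, n = 3) to 7.94 ± 2.42 (n = 3) at 6 weeks, a log2 fold change of -1.20 ± 0.20 (SE; limma adjusted p = 0.000172), after -1.26 at 1 week and -1.13 at 3 weeks. The female mean went from 18.0 ± 3.94 (n = 4) to 6.18 ± 0.813 (n = 4), a log2 fold change of -1.45 ± 0.16 (limma adjusted p = 5.46e-07), after -1.24 at both earlier weeks. With the conflicting libraries placed by title the male change at 6 weeks was -0.50 and did not pass (limma adjusted p = 0.418). With both placed by description it stayed called. Uninduced hearts took a middle place, at 13.3 ± 1.12 CPM in males (n = 4) and 14.9 ± 2.34 in females (n = 4). The male uninduced libraries, 12.04 to 14.4 CPM, all lay below the lowest control, yet the difference of -0.45 did not pass (limma adjusted p = 0.406). The female uninduced and control libraries overlapped.

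**Figure D2:**
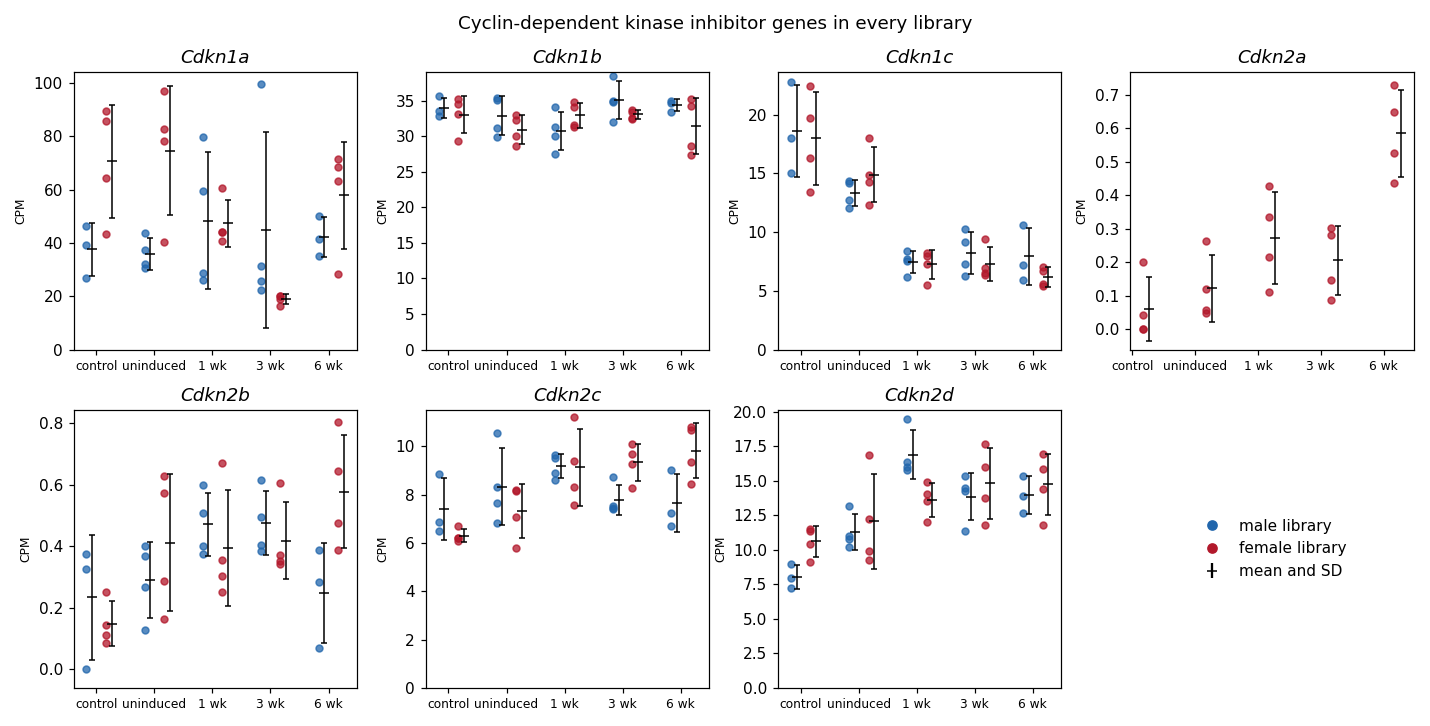
CPM of each member in every library (points; blue male, red female) with the group mean and SD (black), over the 5 groups on the x axis. *Cdkn1c* is lower in the induced groups than in the tamoxifen-treated controls in both sexes, *Cdkn1b* stays between 27.4 and 38.5 CPM throughout, and the female 3-week points of *Cdkn1a* sit together between 16.2 and 20.2 CPM.

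The genes whose level followed *Cdkn1c* most closely over the 18 male and 20 female libraries, among 16599 compared, were *D630003M21Rik* (Pearson r 0.916 and 0.920), *Car4* (0.912 and 0.916), a membrane-bound carbonic anhydrase of capillaries, and *Gm43672* (0.913 and 0.896). *Car4* fell from 30.7 ± 4.96 to 6.65 ± 1.48 CPM in males and from 28.8 ± 4.60 to 4.26 ± 1.02 in females at 6 weeks. Of 12 endothelial markers, 5, 3 and 5 were called below control in males at 1, 3 and 6 weeks, and the female numbers were 9, 9 and 8, where 33.5%, 21.3% and 27.1% of all genes were called in either direction in males and 28.4%, 31.3% and 42.7% in females, and no marker of the list was at 0 in any library. Their summed level ran from 1517 to 1803 CPM in male controls and 1094 to 1339 at 6 weeks, and from 1556 to 1736 in female controls and 1070 to 1238 at 6 weeks. Pericyte and smooth muscle markers, of which 2 of 8 were lower at 6 weeks in each sex, summed to 974 to 1218 CPM in male controls and 650 to 725 at 6 weeks, and to 949 to 1051 in female controls and 607 to 934 at 6 weeks. The part of these markers in the *Cdkn1c* result was not tested. Of the tested neighbours of *Cdkn1c* in its imprinted region, *Kcnq1*, a potassium channel gene, was higher at 6 weeks by 1.15 in males and 0.84 in females on the log2 scale, and *Slc22a18* by 0.76 and 1.03. *Kcnq1ot1*, the antisense RNA that silences the paternal copies, was lower in females by 1.70 (-1.70; limma adjusted p = 0.00323) and measured -0.44 in males (limma adjusted p = 0.131). *Kcnq1* and *Kcnq1ot1* overlap, and the counting is not stated to use strand.

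*Cdkn1a* encodes p21, the best known target of p53 among these inhibitors. It lies on GRCm39 chromosome 17, positions 29309936 to 29319701, plus strand, and overlaps *Dino* and *Gm64878* on the other strand. RefSeq lists 2 starts for it on GRCm38.p6. The upstream one is shown because its window holds letters that match a search pattern for a p53 response element, in capitals. The window runs from 250 bases before to 50 bases after the start (chr17:29090729-29091028, plus strand). The match lies at positions -73 to -42 counted from 0 at the start. On both strands, without mismatch and with at most 13 bases between its parts, that pattern occurs in 0.0731% of 32851 promoter windows. Since no mismatch was allowed, the bases tgacatgttc directly after the capitals, which miss a part of the pattern in their first letter, are unmarked. Binding was not tested.
Cdkn1a upstream start: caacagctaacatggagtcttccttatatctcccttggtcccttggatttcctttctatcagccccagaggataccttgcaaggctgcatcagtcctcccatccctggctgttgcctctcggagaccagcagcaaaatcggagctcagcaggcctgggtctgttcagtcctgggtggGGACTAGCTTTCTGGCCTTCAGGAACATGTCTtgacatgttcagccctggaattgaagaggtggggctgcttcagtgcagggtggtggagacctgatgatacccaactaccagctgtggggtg
In females *Cdkn1a* measured 64.3, 43.4, 89.3 and 85.6 CPM in controls, 44.1, 40.6, 44.2 and 60.5 at 1 week, 20.1, 16.2, 19.1 and 20.2 at 3 weeks, and 63.3, 71.5, 68.3 and 28.3 at 6 weeks. All 4 hearts at 3 weeks lay below every other female library. The mean fell from 70.6 ± 21.2 CPM (n = 4) to 18.9 ± 1.87 (n = 4), a log2 fold change of -1.82 ± 0.28 (limma adjusted p = 3.8e-05). At 1 week the change was -0.53 (interval -1.12 to 0.05) and at 6 weeks -0.32 (interval -0.90 to 0.26), with overlapping libraries.

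In males the same gene did not pass at any week. Controls held 46.4, 26.9 and 39.3 CPM, the 1-week hearts 59.4, 26.01, 28.6 and 79.6, the 3-week hearts 99.5, 25.7, 31.3 and 22.5, and the 6-week hearts 35.0, 50.03 and 41.5. The spread was widest at 3 weeks, where 1 heart stood at 99.5 CPM and the other 3 between 22.5 and 31.3. The log2 fold change there was 0.00, with an interval from -0.84 to 0.85. A difference between the sexes was not tested, since the tables were scaled separately.

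Levels of 15 clock genes were set beside *Cdkn1a* among hearts of the same group. They were looked at after the values of *Cdkn1a* had been seen, so no test of this relation is given. *Dbp* is a clock output gene and *Arntl* encodes the activator BMAL1. The male 3-week heart with 99.5 CPM of *Cdkn1a* had 12.3 CPM of *Dbp* and 16.7 of *Arntl*, against 55.2 to 107 and 1.05 to 6.28 in the other 3. The heart with most *Cdkn1a* had the least *Dbp* in 4 of 5 male and 3 of 5 female groups. After the group means were taken out, *Cdkn1a* and *Dbp* had r -0.68 and rho -0.69 in males (18 libraries; r -0.68 without the 2 farthest) and r -0.79 and rho -0.78 in females (20 libraries; r -0.72). With *Arntl*, r was 0.64 in males and 0.85 in females. Over the 15 genes, r was negative for 11 and positive for 4 in males and negative for 12 and positive for 3 in females, and it was weak for some, such as *Cry1* (0.06 and -0.09), *Per1* (-0.31 and -0.45) and, in males, *Per2* (-0.33) and *Clock* (0.35). These points share a table and its scaling.

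All 4 female 3-week hearts had high *Dbp*, 91.2 to 140 CPM. Among female controls, the hearts with 103 and 130 CPM of *Dbp* had 64.3 and 43.4 CPM of *Cdkn1a*, and those with 19.2 and 34.3 had 89.3 and 85.6. The female 6-week heart with 118 CPM of *Dbp* held 28.3 CPM of *Cdkn1a*, the next lowest female value after the 3-week hearts. Of 15 clock genes, 0 passed limma in females at 3 weeks against control, beside 31.3% of all genes. In that comparison 2 had an unadjusted p under 0.05, beside 41.1%. Against uninduced hearts 2 were higher and 2 lower at 3 weeks. Against control, 6 of 15 were called lower at 1 week and 9 at 6 weeks in females, beside 28.4% and 42.7% of all genes. *Cdkn1a* was not called at those weeks. In males 3, 0 and 1 of 15 were lower at 1, 3 and 6 weeks, beside 33.5%, 21.3% and 27.1%. None was higher against control in either sex. Between the weeks in females 0 passed, but 9 of 15 had an unadjusted p under 0.05 for 3 against 1 week and 13 of 15 for 6 against 3 weeks, beside 10% and 15.2% of all genes. The part of these genes in the *Cdkn1a* result was not tested.

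**Figure D3:**
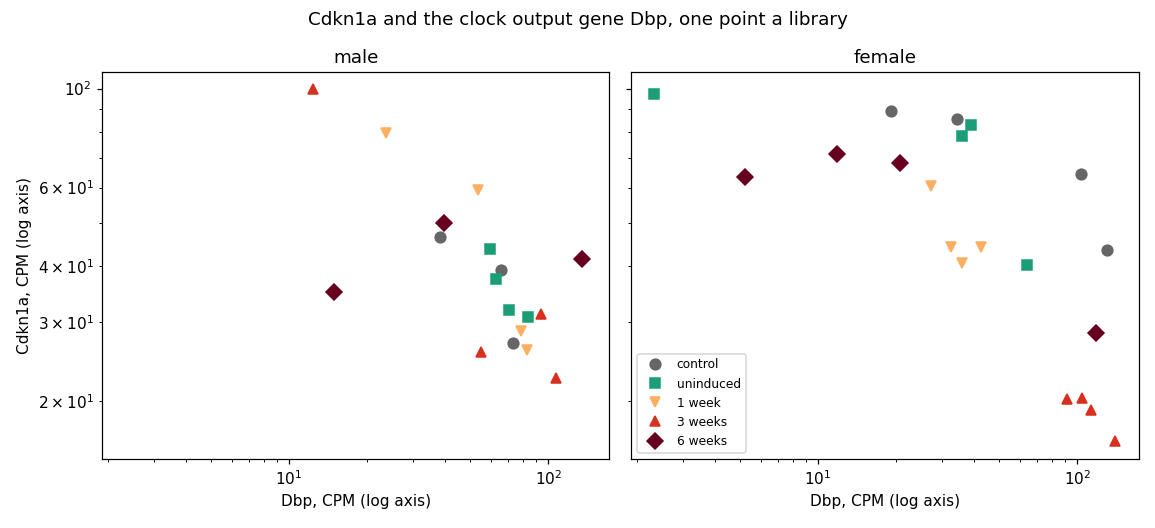
*Cdkn1a* against *Dbp*, both in CPM on log axes, with 1 point per library and a symbol per group, in males (left) and females (right). Libraries with less *Dbp* tend to hold more *Cdkn1a*, and the female 3-week libraries lie at the lower right, at 16.2 to 20.2 CPM of *Cdkn1a*.

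Genes of the p53 list were called in both directions. Of 25 tested, 5, 2 and 3 were higher and 3, 1 and 4 lower in males at 1, 3 and 6 weeks, and 1, 2 and 2 were higher and 3, 3 and 7 lower in females, beside 33.5%, 21.3% and 27.1% of all genes called in males and 28.4%, 31.3% and 42.7% in females. The male totals of 8, 3 and 7 came to 3 to 7, 0 to 3 and 2 to 5 when 1 replicate number was left out, each lowest without replicate 3. *Pmaip1*, which encodes the death protein NOXA, rose by 0.82 in males and 1.32 in females at 6 weeks on the log2 scale, *Sesn1* changed by -0.67 and -1.14, and *Mdm2*, whose product degrades p53, by -0.54 and -0.35. *Trp53* itself measured 0.40 in males and 0.16 in females without passing. The genes most like *Cdkn1a* over all libraries were *Slc41a3* (r 0.775 in males and 0.698 in females), *Phc2* (0.814 and 0.686) and *Sgsm3* (0.762 and 0.675).

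*Cdkn1b*, which encodes p27, was the steadiest member. It lies on GRCm39 chromosome 6, positions 134897364 to 134902476, plus strand. Its libraries ran from 27.5 to 38.5 CPM in males and from 27.4 to 35.3 CPM in females, and every group overlapped its controls. The log2 fold change at 6 weeks was 0.01 (interval -0.21 to 0.24) in males and -0.08 (interval -0.26 to 0.11) in females, and it did not pass at any week. Of 12 genes for the turnover and transcription of p27, 3 were higher and 4 lower in males at 1 week, 2 lower at 3 weeks and 1 higher at 6 weeks, and in females 2 were higher and 4 lower at 1 week, 2 lower at 3 weeks and 3 lower at 6 weeks. All genes were called at 33.5%, 21.3% and 27.1% in males and 28.4%, 31.3% and 42.7% in females. The 1-week totals of 7 and 6 dropped to 2 in males without replicate 3 and to 1 in females without replicate 2. *Skp2*, the ubiquitin ligase subunit that recognises p27, rose by 0.81 and 0.48 at 1 week and *Foxo3*, a forkhead activator of *Cdkn1b*, changed by -0.82 and -0.63. At 6 weeks *Skp2* passed in males (0.73) and measured 0.12 in females (limma adjusted p = 0.59). The genes most like *Cdkn1b*, *Ghr*, *Thap2* and *Zfp958*, reached r of 0.632 to 0.646 in males and 0.554 to 0.560 in females.

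*Cdkn2d* encodes the INK4 protein p19, found in many tissues. It lies on GRCm39 chromosome 9, positions 21199700 to 21202727, minus strand. Its RefSeq promoter window (GRCm38.p6, chr9:21291160-21291459, minus strand) is shown as that of the INK4 gene that rose in both sexes. Capitals mark 5 GC boxes, the letters GGGCGG on either strand, a motif found in 35.7% of windows, and none of the STAT-type (TTCNNNGAA), forkhead (GTAAACA) or E2F (TTTGGCGC or TTTCGCGC) letters was found in it. Those 3 motifs occur in 8.3%, 3.65% and 0.813% of all windows.
Cdkn2d: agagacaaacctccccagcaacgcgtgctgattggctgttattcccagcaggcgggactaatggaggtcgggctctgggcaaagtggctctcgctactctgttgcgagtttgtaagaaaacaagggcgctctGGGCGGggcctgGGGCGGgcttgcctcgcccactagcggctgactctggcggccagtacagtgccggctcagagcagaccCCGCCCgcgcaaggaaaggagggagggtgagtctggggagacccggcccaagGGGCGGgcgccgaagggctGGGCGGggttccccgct
In males *Cdkn2d* measured 8.96, 7.95 and 7.21 CPM in controls, 16.0, 16.4, 15.8 and 19.5 at 1 week, 14.5, 15.3, 14.3 and 11.4 at 3 weeks, and 15.4, 12.7 and 13.9 at 6 weeks. No induced library overlapped the controls. The log2 fold change was 1.03 ± 0.13 at 1 week (limma adjusted p = 7.91e-06), 0.75 at 3 weeks and 0.76 ± 0.14 at 6 weeks (limma adjusted p = 0.000416). With the conflicting libraries placed by title the 6-week change was 0.57 and did not pass (limma adjusted p = 0.226). With both placed by description it stayed called. Uninduced males, at 10.2 to 13.2 CPM, also lay above all controls, by 0.46, which did not pass (limma adjusted p = 0.146) but did so in DESeq2 (adjusted p = 0.0497).

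In females *Cdkn2d* measured 10.4, 11.4, 9.11 and 11.5 CPM in controls, 11.99, 14.1, 14.9 and 13.6 at 1 week, 11.8, 16.0, 17.7 and 13.8 at 3 weeks, and 14.4, 16.9, 11.8 and 15.9 at 6 weeks. The induced groups did not overlap the controls. The log2 fold changes were 0.35 at 1 week, which did not pass (limma adjusted p = 0.113), 0.45 at 3 weeks (0.0364) and 0.45 at 6 weeks (0.0287). The difference from males was not tested. The 3-week call was lost without replicate 2, 3 or 4, and the 6-week call without replicate 1, 2 or 4. The genes most like *Cdkn2d* were *Gm6136* (r 0.907 in both sexes), *Rpl27a* (0.905 and 0.906) and *Rps16* (0.900 and 0.898), the last 2 of which encode ribosomal proteins. *Rpl27a* went from 142 ± 19.0 CPM to 216 ± 8.29 in males and from 175 ± 11.9 to 224 ± 18.6 in females at 6 weeks.

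*Cdkn2c* encodes p18 and passed the test in females. It lies on GRCm39 chromosome 4, positions 109517957 to 109524386, minus strand. Female controls held 6.20, 6.19, 6.70 and 6.10 CPM, the 1-week hearts 9.39, 11.2, 7.57 and 8.33, the 3-week hearts 9.26, 9.69, 10.1 and 8.29, and the 6-week hearts 8.44, 10.7, 9.34 and 10.8. All 12 lay above the controls, with log2 fold changes of 0.49 (limma adjusted p = 0.00586), 0.53 (0.00293) and 0.60 (0.00078). The 1-week call was lost without replicate 2 (0.38, limma adjusted p = 0.054). In males the controls held 6.86, 6.51 and 8.86 CPM and overlapped every other group. The male log2 fold change was 0.30 at 1 week (interval -0.01 to 0.61) and 0.04 at 6 weeks (interval -0.29 to 0.38), and the difference between the sexes was not tested.

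The genes most like *Cdkn2c* were *Lmnb1* (r 0.813 in males and 0.830 in females), which encodes a lamin of the nuclear envelope, *Bub1b* (0.766 and 0.754), a mitotic checkpoint kinase, and *Stmn1* (0.745 and 0.789), a regulator of microtubules. *Bub1b* had its highest male group mean at 1 week, 3.94 ± 0.826 CPM against 1.81 ± 0.811 in controls and 1.95 ± 0.182 at 6 weeks, while in females it went from 1.45 ± 0.160 to 3.48 ± 0.960 at 1 week and 3.12 ± 0.744 at 6 weeks. Of 31 proliferation genes, 16 were higher and 1 lower in males at 1 week, 2 higher and 1 lower at 3 weeks, and 1 higher at 6 weeks. In females 19, 5 and 11 were higher. The shares over all genes were 33.5%, 21.3% and 27.1% in males and 28.4%, 31.3% and 42.7% in females. At 1 week the list's median log2 fold change was 0.61 in males and 0.68 in females, against 0.02 and -0.02 over all genes. The male 1-week total of 17 was 7 without replicate 1, 11 without replicate 2, 8 without replicate 3 and 22 without replicate 4, and the female total of 19 was 11 without replicate 2. At 6 weeks the female total of 11 was 6 without replicate 2 and 5 without replicate 3. *Tyms*, a thymidylate synthase needed for DNA synthesis, rose in females by 1.03, 0.97 and 0.99 on the log2 scale, and *Gins2*, part of the replication helicase, rose in both sexes at every week, by 1.34, 1.01 and 0.63 in males and 0.68, 0.63 and 0.90 in females. *Mki67* rose at 1 week in females (0.88) and measured 0.43 in males.

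*Cdkn2a* and *Cdkn2b* neighbour each other on GRCm39 chromosome 4, both on the minus strand, at positions 89192708 to 89212890 and 89223204 to 89229276, with 10313 bases between them. *Cdkn2a* makes p16 and, from another first exon in another reading frame, p19ARF, which protects p53, and values per gene cannot tell the 2 products apart. Their separate starts are shown for that reason, from RefSeq on GRCm38.p6, minus strand, chr4:89282143-89282442 and chr4:89294570-89294869. Capitals mark GC boxes in both, 1 in the downstream window and 3 in the upstream one. In the downstream window they also mark AGGTCA, the half-site bound by ROR and REV-ERB receptors of the clock. That motif was added to the search after the values were seen and occurs in 16.3% of windows on either strand. Neither *Cdkn1a* window holds it or the E-box letters CACGTG, which were searched too, and a *Cdkn2c* window holds both. Clock genes were not set beside *Cdkn2a* or *Cdkn2c*.
Cdkn2a downstream start: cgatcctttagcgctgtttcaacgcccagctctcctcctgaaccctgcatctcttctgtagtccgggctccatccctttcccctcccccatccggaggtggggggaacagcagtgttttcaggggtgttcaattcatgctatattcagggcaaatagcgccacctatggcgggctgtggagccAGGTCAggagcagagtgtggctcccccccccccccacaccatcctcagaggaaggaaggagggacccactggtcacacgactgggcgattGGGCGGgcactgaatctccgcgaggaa
Cdkn2a upstream start: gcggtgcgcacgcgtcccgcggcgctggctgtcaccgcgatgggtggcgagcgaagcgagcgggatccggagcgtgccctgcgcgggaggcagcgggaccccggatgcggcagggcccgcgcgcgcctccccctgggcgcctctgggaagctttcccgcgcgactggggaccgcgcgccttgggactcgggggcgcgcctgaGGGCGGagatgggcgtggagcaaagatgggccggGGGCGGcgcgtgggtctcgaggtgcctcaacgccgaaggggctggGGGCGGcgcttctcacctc
Both genes were barely expressed. *Cdkn2a* had 1, 0, 4 and 0 reads in the female controls, 12, 3, 8 and 5 at 1 week, 4, 8, 7 and 3 at 3 weeks, and 11, 17, 15 and 21 at 6 weeks. Every 6-week library held more than every other female library except for the 12 reads in 1 heart at 1 week, whose 0.427 CPM still lay below the lowest 6-week value of 0.436 CPM. The mean went from 0.0608 ± 0.0951 CPM to 0.585 ± 0.130 (n = 4 each), a log2 fold change of 0.96 ± 0.17 on the log2(CPM + 0.5) scale, which understates changes at such levels (limma adjusted p = 0.000186). *Cdkn2a* passed the filter only through the 6-week hearts, the group in which it was high. At 1 week the change of 0.46 did not pass (limma adjusted p = 0.0543), but passed with a pseudocount of 0.1 and in edgeR and DESeq2 (adjusted p = 0.0258, 0.0411 and 0.0407).

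*Cdkn2b* had 2, 3, 5 and 2 reads in female controls and 12, 15, 11 and 26 at 6 weeks, where its mean was 0.577 ± 0.184 CPM against 0.148 ± 0.0722 (log2 fold change 0.72 ± 0.19, limma adjusted p = 0.00468). At 3 weeks it held 9 to 15 reads and missed the threshold (0.50, limma adjusted p = 0.0511), though edgeR and DESeq2 called it. Uninduced females, at 4 to 13 reads, overlapped both. In males the controls had 10, 0 and 20 reads and the 6-week hearts 16, 8 and 3, with a log2 fold change of 0.04 (interval -0.43 to 0.52). Male hearts held 10 to 18 reads at 1 week and at 3 weeks, with log2 fold changes of 0.44 (limma adjusted p = 0.116) and 0.45 (limma adjusted p = 0.148), and the 3-week libraries, at 0.386 to 0.614 CPM, did not overlap the controls. *Cdkn2b* overlaps *Gm12610* on the other strand, and the genes most like it were *Arl6* (r 0.746 and 0.737), *Rpl13a* (0.785 and 0.724) and *Morf4l2* (0.732 and 0.722). Macrophage markers were higher in the same hearts, 10 of 12 in males and 11 of 12 in females at 6 weeks, as were 8 of 10 fibroblast markers in each sex, and none of these markers was at 0 in any library. Over all genes, 27.1% in males and 42.7% in females were called in either direction at 6 weeks. The summed macrophage level ran from 244 to 307 CPM in female controls and 1226 to 1400 at 6 weeks. The part of these cells in the results for *Cdkn2a* and *Cdkn2b* was not tested. Of 15 Polycomb genes, which include repressors of this locus, 1 was higher in males and 2 higher and 1 lower in females at 6 weeks. These counts stand beside the same 27.1% and 42.7% of all genes. *Bmi1* and *Ezh2* did not pass.

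In uninduced hearts, no member passed against control by limma, 0 of 6 in males (0.597% of all genes) and 0 of 7 in females (2.87%). At an unadjusted limma p under 0.05 there were 2 in males (*Cdkn1c* and *Cdkn2d*) and 1 in females (*Cdkn2b*), beside 10.6% and 15.4% of all genes. By adjusted p, edgeR called 0 in either sex, and DESeq2 called 1 in males (*Cdkn2d*) and 0 in females. Macrophage markers were already higher for 10 of 12 genes in uninduced females, beside 2.87% of all genes. Their summed level ran from 244 to 307 CPM in female controls and 430 to 589 in uninduced females. In males it ran from 264 to 424 CPM in controls and 371 to 532 in uninduced hearts, which overlap.

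Against uninduced hearts, which carry the same transgenes but had no tamoxifen, *Cdkn1c* was lower at every week in both sexes, with log2 fold changes of -0.80, -0.68 and -0.75 in males and -0.99, -0.98 and -1.20 in females. With it, *Cdkn2d* was higher at 1 week in males (0.56), *Cdkn1a* lower at 3 weeks in females (-1.88), and *Cdkn2a* (0.81) and *Cdkn2c* (0.41) higher at 6 weeks in females. The counts were 2, 1 and 1 of 6 in males, where 18.8%, 16.1% and 20.4% of genes were called, and 1, 2 and 3 of 7 in females, with 12.6%, 16.7% and 22.8%. The female 6-week count includes *Cdkn2a*, which entered the test only through those hearts, in which it was high. Under the alternatives that count ran from 2 to 3. The male *Cdkn1c* call was lost at 3 weeks without replicate 2 or 3 and at 6 weeks without replicate 1 or 3. That of *Cdkn2c* was lost without replicate 2, 3 or 4. These comparisons share their induced hearts with those against control.

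Between the weeks, limma called no member. At an unadjusted limma p under 0.05 there were 1, 0 and 0 members in males and 1, 1 and 2 in females for 3 against 1, 6 against 1 and 6 against 3 weeks, beside 16.0%, 15.4% and 6.33% of all genes in males and 10%, 12.6% and 15.2% in females. By adjusted p, edgeR called 0 in each sex, and DESeq2 called 0 in males and 1, 0 and 1 in females. The shares of all genes called by limma at the adjusted threshold were 0.0177% for 3 against 1 week, 0.165% for 6 against 1 week and 0% for 6 against 3 weeks in males, and 0.218%, 1.03% and 0% in females. *Cdkn1a* in females came closest, with -1.29 from 1 to 3 weeks (limma adjusted p = 0.0625) and 1.51 from 3 to 6 weeks (limma adjusted p = 0.0794), and in both comparisons the libraries of the groups did not overlap. DESeq2 called both of these changes (adjusted p = 0.000474 and 2.38e-05).

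Next come the kinases and cyclins that the inhibitors act on. Of 11 G1 cyclins and kinases, 2, 0 and 1 were higher and 1, 0 and 2 lower in males at 1, 3 and 6 weeks, and 1, 1 and 2 were higher and 1, 0 and 1 lower in females, beside 33.5%, 21.3% and 27.1% of all genes called in males and 28.4%, 31.3% and 42.7% in females. *Cdk4*, the kinase bound by the INK4 proteins, rose at 6 weeks by 0.61 in males and 0.27 in females, from 26.8 ± 1.95 to 41.9 ± 10.8 CPM and from 35.3 ± 2.04 to 42.7 ± 4.58 CPM. *Cdk6* did not pass, with 0.11 and -0.15, and *Cdk2* measured 0.04 in males and fell in females (-0.38). *Ccnd1*, which encodes cyclin D1, fell in males (-0.51) and measured -0.32 in females, while *Ccne1*, for cyclin E1, rose in females at every week (0.72, 0.75 and 0.57) and at 1 week in males (0.66). *Ccnd2*, *Ccnd3* and *Rb1*, whose product is the main substrate of Cdk4, did not pass at 6 weeks in either sex.

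Among 13 pocket proteins and E2F factors, *E2f1* rose in both sexes at every week, by 1.15, 0.78 and 0.73 in males and 1.03, 1.04 and 1.07 in females. *Tfdp2*, a partner of the E2F factors, fell in all 6 comparisons, from -0.80 to -1.29. Of 6 tested S and M phase genes, 4 were higher at 1 week in each sex (33.5% and 28.4% of all genes were called), 0 were called at 3 weeks in either sex, and 0 in males and 1 in females were called at 6 weeks. The male 1-week count was 1 without replicate 1 or replicate 3. *Cdk1*, the mitotic kinase, rose by 1.14 in males and 1.10 in females at 1 week, and by 0.89 in females at 6 weeks, against 0.20 in males, which did not pass.

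**Figure D4:**
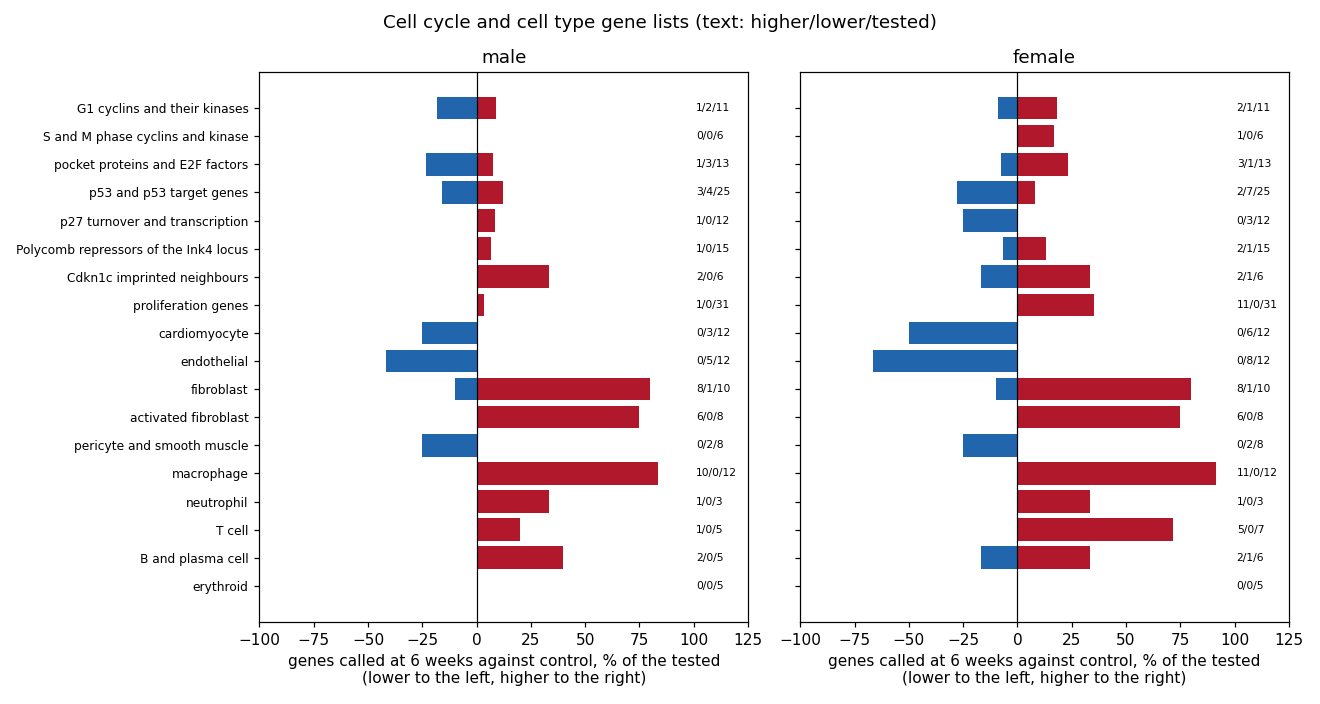
Share of tested genes of each list called higher (red, right) or lower (blue, left) at 6 weeks against control by limma, in males and females, with the counts printed as higher, lower and tested. The proliferation list shows 11 of 31 genes higher in females and 1 of 31 in males, and endothelial and cardiomyocyte markers lie to the left in both.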

How the data were processed

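PolyA RNA from 40 mouse hearts was sequenced as 1 library per mouse from a directional kit. The authors aligned reads to GRCm39 (Ensembl release 106) with STAR 2.7.10a, counted them on genes with featureCounts (Rsubread 2.10.4, and the submitters' processing notes name featureCounts) and used edgeR 3.38.1. Whether counting used strand is not given in the sources used here. The deposited signal is a table in CPM for each sex. Column sums run from 817395 to 1196280, and 100% of values lie within 0.001 of a whole read once the step of each library is taken out, so the values are counts divided by a factor per library, from which the reads were recovered. Replicates are separate mice. The lowest chi-square per gene over 54 replicate pairs was 6.76, above counting noise.

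Groups were taken from the labels, and 2 male libraries with conflicting labels were left out. limma 3.58.1 (R 4.3.3) was fitted with a mean-variance trend to log2(CPM + 0.5) over all labelled libraries of a sex, on genes that reached 0.5 CPM in 3 or more libraries (16931 male and 16956 female genes), with Benjamini-Hochberg adjustment over these genes and a threshold of 0.05. Fold changes are on that scale, with 95% intervals unadjusted for the number of genes. Tests stayed within a table, since the tables were scaled separately. The 2 tables share 17038 genes.

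Alternatives were pseudocounts of 0.1 and 2, no filter, a filter at 1 in 4 libraries, median-of-ratios scaling, fits of only the compared groups, edgeR 4.0.16 and DESeq2 1.42.0 on recovered reads, a replicate block, leaving out each replicate number, and placing the conflicting libraries by title or description. The labels do not say that replicate numbers pair the libraries, and the main fit used no pairing. Whether same-numbered libraries share a source was not tested.

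The text names all 7 members, from each list the called genes with the largest mean change at 6 weeks (at most 4, of which a part is printed), chosen regulators, and the 3 genes most correlated with each member in the sex where the correlation is lower. Members and lists were chosen with earlier results of these data known. Clock genes, their motifs and the genes *Car4*, *Rpl27a* and *Bub1b*, whose levels are given, were picked after values were seen. Gene positions and exon lengths are from GENCODE on GRCm39, a later release than the authors used. Promoters are from RefSeq (GRCm38.p6), which matched 6 of 7 members with 9 windows of 300 bases. *Cdkn1c* had no entry. The test was checked on simulated counts, with the same spread between replicates for every gene. For 6 weeks against control, limma recovered 69% of 2-fold changes in males and 87% in females, and 100% of 4-fold changes. False calls made up 2.31% and 6.5% of its calls. The simulated spread was not that of the single members, so these shares do not give the recovery for a member.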

Additional observations from a re-analysis of the deposited data

Results flagged for a closer look

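Among 53 sets of 4 libraries examined for single members, 5 had 1 library far from the other 3, where chance flags about 1 in 20. In males these were *Cdkn1a* at 3 weeks (99.5 CPM in replicate 1, next highest 31.3), *Cdkn2c* at 3 weeks (8.72 in replicate 4, next 7.52) and *Cdkn2d* at 1 week (19.5 in replicate 4, next 16.4). In females they were *Cdkn2b* at 3 weeks (0.604 in replicate 3, next 0.372) and *Cdkn2c* in controls (6.70 in replicate 3, next 6.20). Groups of 3 libraries were not examined in this way.

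The 2 male libraries whose labels conflict entered no comparison and exceeded the highest labelled control for some members. The library titled control and described as 6 weeks held 59.1 CPM of *Cdkn1a* (highest control 46.4), 37.3 of *Cdkn1b* (35.6), 0.451 of *Cdkn2b* (0.375) and 10.4 of *Cdkn2d* (8.96). The library titled 6 weeks and described as control held 38.0 CPM of *Cdkn1b* and 10.3 of *Cdkn2d*. For *Cdkn1c* they held 5.17 and 16.6 CPM, against 15.1 to 22.8 in the labelled male controls and 5.95 to 10.6 at 6 weeks.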

How the results depend on the processing

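The 27 called changes of a member kept their direction under every alternative run. Of their 368 alternative values, 345 also stayed called and 23 did not. With the conflicting libraries placed by title, the number of called male members against control was 1, 0 and 0 at 1, 3 and 6 weeks and against uninduced hearts 1, 0 and 0. For females at 1 week against control it was 4 with a pseudocount of 0.1 and with edgeR, and at 6 weeks 3 with the filter at 1 in 4 libraries, which leaves fewer genes tested and drops *Cdkn2a* and *Cdkn2b*. DESeq2 gave 1 in uninduced males against control, 1 in females for 3 against 1 week and 1 for 6 against 3 weeks. The fit of only the 2 groups gave 1 for 3 against 1 week in females. Leaving out 1 replicate number gave 0 to 1 in males against uninduced hearts at 3 and at 6 weeks, and 1 to 2 in females at 1 week. Counts over the gene lists moved more often: of 672 alternative counts, 549 lay within 1.5 times of the value given. Causes were not tested unless named.

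Changes in direction touched values that were not called. For *Cdkn1a* in males at 3 weeks these were -0.0082 with median-of-ratios scaling, -0.17 by title and -0.0301 by description. For *Cdkn2b* in males at 6 weeks they were -0.013 in edgeR and -0.0577 by title, and for *Cdkn2c* in males at 6 weeks -0.0566 by description. For *Cdkn1b* in females at 1 week they were 0.0129 with median-of-ratios scaling and 0.0117 in DESeq2.

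Leaving out replicate numbers gave log2 fold changes against control in males of -0.012 to 0.078 (*Cdkn1b*, 3 weeks), -0.30 to 0.28 (*Cdkn1a*, 3 weeks), -0.12 to 0.26 (*Cdkn2c*, 6 weeks), -0.26 to 0.33 (*Cdkn2b*, 6 weeks), -0.017 to 0.035 (*Cdkn1b*, 6 weeks) and -0.16 to 0.48 (*Cdkn1a*, 6 weeks). In uninduced males they were -0.039 to 0.31 (*Cdkn2c*), -0.19 to 0.35 (*Cdkn2b*), -0.11 to 0.027 (*Cdkn1b*) and -0.28 to 0.18 (*Cdkn1a*). In females they were -0.039 to 0.051, -0.045 to 0.043 and -0.18 to 0.015 (*Cdkn1b* at 1, 3 and 6 weeks), -0.66 to 0.10 (*Cdkn1a*, 6 weeks), and, in uninduced hearts, -0.091 to 0.26 (*Cdkn2d*) and -0.30 to 0.30 (*Cdkn1a*).

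With the replicate block, *Cdkn1a* in uninduced males was 0.12 in place of -0.04, and no call of a member changed. The numbers share no source in the labels: same-numbered libraries had a mean residual correlation of 0.0132 in males and 0.0255 in females, and 5 of 18 and 9 of 20 libraries correlated best with their own number. At this depth 3 reads allow no statement below 0.0488 to 0.172 CPM, which covers counting error only and limits *Cdkn2a* and *Cdkn2b*.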
